A study of Homo sapiens with 12 samples.

Results

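The MYT1 zinc finger family has 3 members in humans, MYT1, MYT1L and ST18, and all 3 were found by symbol among the 56832 gene symbols counted in each of 12 RNA-seq libraries of SW1736, an established anaplastic thyroid cancer cell line. MYT1 was chosen because its counts were high after thyroid hormone only in cells supplied with the receptor, so its levels and differences are given as a description, without a test. MYT1L and ST18 were taken as its paralogs. The cells stably carried the vector pCDH-TRB, which supplies thyroid hormone receptor beta (TRB cells), or the empty vector pCDH-EV (EV cells). All groups were starved of hormone in charcoal-stripped serum for 24 h, then received 10 nM triiodothyronine (T3) or NaOH as vehicle for 24 h. The 4 groups, EV with vehicle, EV with T3, TRB with vehicle and TRB with T3, held 3 libraries each. The sources used here do not say whether either cell line was a clone or whether the libraries of a group came from separate cultures, so p-values measure only the spread between these libraries, which may be technical.

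Proteins of this family bind DNA through clusters of zinc fingers of a C2HC type, in which cysteines and a histidine hold the zinc ion, and recognise sites around the short core AAGTT. MYT1 and MYT1L are best known from developing neurons and oligodendrocytes, where they recruit corepressor complexes with SIN3B, histone deacetylases and the demethylase KDM1A. MYT1 also takes part in the formation of pancreatic endocrine cells, and ST18 is known from pancreatic beta cells and brain. Work in neural cells has described repression of Notch genes, HES1 and YAP1 by family members. None of these roles belongs to thyroid tissue in particular.

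The finger that follows was picked as the closest pair between MYT1 and MYT1L, to show the spacing of the units that bind DNA. A search of the coding sequences of GENCODE release 29 for the cysteine and histidine spacing of these fingers found 7 in MYT1 (a transcript coding for 1148 residues), 7 in MYT1L (1207 residues) and 6 in ST18 (1047 residues). The second finger of MYT1 (chr20:64211238-64211312, plus strand, GRCh38) and the second finger of MYT1L (chr2:1917233-1917307, minus strand) share 61 of 75 bases, 81.3%. Fingers at the same position in MYT1 and MYT1L shared 65.3% (finger 1) to 81.3% of their bases. Codons of the cysteines and histidines that define the finger are in capitals.
MYT1 finger 2: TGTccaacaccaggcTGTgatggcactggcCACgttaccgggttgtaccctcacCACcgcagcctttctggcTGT
MYT1L finger 2: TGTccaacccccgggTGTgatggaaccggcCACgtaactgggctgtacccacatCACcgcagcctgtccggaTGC

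MYT1 lies on chromosome 20, from 64164452 to 64242253 on the plus strand in RefSeq (GRCh38). GENCODE release 29 starts it at 64102394, with 6 transcripts. The 250 bases before the RefSeq start of MYT1 (chr20:64164202-64164451, plus strand, RefSeq, GRCh38.p14) are shown because MYT1 is the member whose level differed between groups, and the 2 CG pairs in them are in capitals.
MYT1 upstream: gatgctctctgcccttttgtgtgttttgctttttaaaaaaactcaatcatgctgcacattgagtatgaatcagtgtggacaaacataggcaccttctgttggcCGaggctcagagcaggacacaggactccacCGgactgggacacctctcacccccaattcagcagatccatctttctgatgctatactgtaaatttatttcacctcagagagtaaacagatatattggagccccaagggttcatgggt
The 300-base window that adds the first 50 bases of the gene had a GC content of 48%, and 26.6% of 35116 RefSeq windows of that length had a lower one. Searched on both strands, the window held no AGGTCA, the core of a thyroid hormone receptor site, which 13.8% of all windows held. It held no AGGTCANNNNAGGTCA, the direct repeat with a spacer of 4 (0.0199% of windows), which contains AGGTCA. It held no AAGTT, the core of the family's own sites (34.0% of windows), and no AAAGTTT, which contains that core (4.28% of windows). These matches cover only the letters of this window.

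Counts within genes ranged from 3819306 (EV with T3 replicate 3) to 13086717 (TRB with T3 replicate 1) per library, and the share of a file taken by alignments counted as not unique ran from 19% to 92%. TRB with T3 replicate 2 stood apart: its difference from replicates 1 and 3 followed gene GC content (Spearman correlation -0.90 across 11626 genes, which are not independent). The biological coefficient of variation of that group was 0.629, and 0.0576 without this library, so results are given with 12 libraries and with the other 11. The line's own markers were mixed. The thyroid genes FOXE1 and TSHR had no count in any library, TG at most 5 and SLC5A5 at most 1, while PAX8 stood at 0.72 to 6.98 CPM (from 3.37 without TRB with T3 replicate 2), a count relative to the library's size after TMM scaling. The epithelial genes KRT8, KRT18, EPCAM and CDH1 were high, and the mesenchymal gene VIM had at most 18 counts.

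MYT1 was detected in all 12 libraries, and the 3 libraries of TRB cells with T3 stood far above the rest. In EV cells with vehicle MYT1 had 17, 45 and 37 counts in replicates 1, 2 and 3, which is 3.69, 3.68 and 3.40 CPM. In EV cells with T3 it had 27, 52 and 34 counts, or 4.17, 5.49 and 8.61 CPM. In TRB vehicle libraries it had 24, 29 and 26 counts, or 2.44, 2.50 and 2.18 CPM. The libraries of TRB cells with T3 held 3193, 667 and 1868 counts, or 239.6, 119.99 and 233 CPM. By mean, the order of the 4 groups from low to high was TRB with vehicle, EV with vehicle, EV with T3 and TRB with T3. The lowest library of TRB with T3 is replicate 2, the library that stood apart, and the highest of EV with T3 is replicate 3, the shallowest library.

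**Figure D1:**
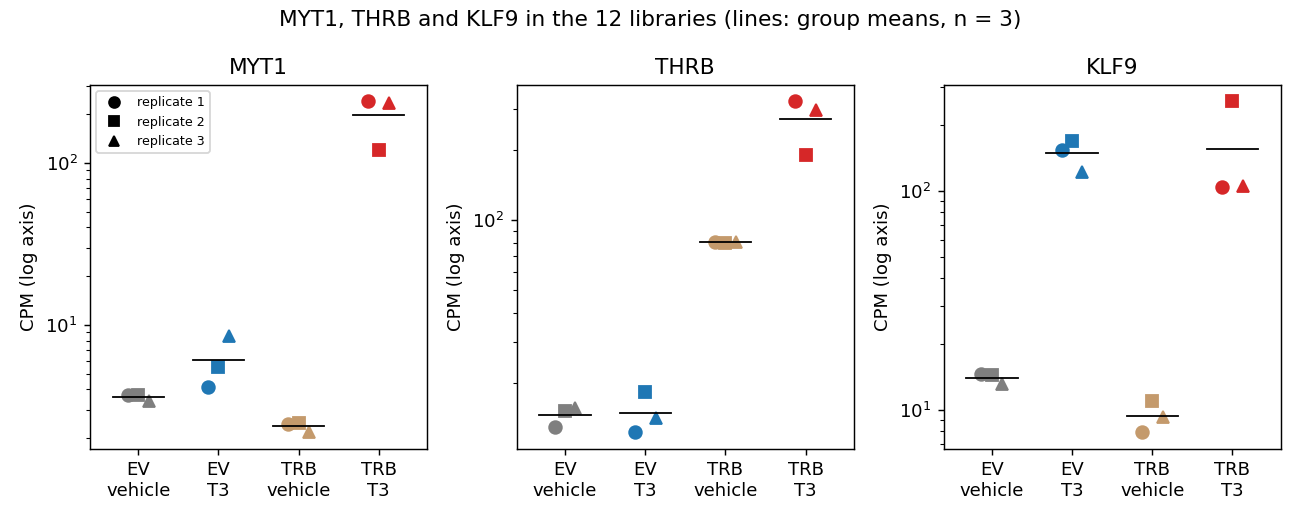
CPM (log axis, a separate range per gene) of MYT1, THRB and KLF9 in each library of the 4 groups, with symbols for replicates and lines at group means (n = 3). MYT1 is high only in TRB cells with T3 (119.99 to 239.6 CPM), whereas KLF9 is high with T3 in both kinds of cells.

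The group means of MYT1 were 3.59 ± 0.164 CPM (SD, n = 3) in EV with vehicle, 6.09 ± 2.28 in EV with T3, 2.37 ± 0.168 in the TRB vehicle libraries and 198 ± 67.3 in TRB with T3. Replicates 1 and 3 of the last group had a mean of 236.5 ± 4.45 CPM, and replicate 2 stood at 50.7% of it. Per kilobase of exon (6427 bases) the mean was 0.559 CPM in EV with vehicle, 0.947 in EV with T3, 0.369 in the TRB vehicle libraries and 30.8 in TRB with T3. On this per-length scale 5.30% of 11625 tested protein-coding genes lay below MYT1 in TRB cells with vehicle, and 87.9% did with T3. In bulk RNA, more transcripts in every cell and more cells with the transcript cannot be told apart, and likewise fewer cells of a type and less RNA per cell.

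T3 against vehicle gave a ratio of MYT1 means of 83.3 in TRB cells and 1.7 in EV cells. The fitted log2 difference in TRB cells was 6.37 (SE 0.370) with 12 libraries and 6.68 (SE 0.189) with 11, the 35th most positive of 14431 genes in the fit of 12. In EV cells it was 0.74 (SE 0.323), and 0.47 without replicate 3 of EV with T3. The difference of these differences, the interaction of vector and hormone, was 5.63 (SE 0.465) with 12 libraries and 5.98 (SE 0.292) with 11, and 20th of 14431 genes. These values are the ones MYT1 was chosen on.

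Without hormone MYT1 went the other way with the receptor. It stood 1.51-fold higher in EV than in TRB cells with vehicle. TRB with vehicle is also the baseline of the rise MYT1 was chosen on, so a low level there is favoured by that choice. The fitted log2 difference of TRB against EV was -0.59 (SE 0.327) with 12 libraries and -0.57 (SE 0.225) with 11. These levels rest on 17 to 45 counts a library. With T3 the same difference was 5.04 (SE 0.348), a ratio of means of 32.5, and TRB with T3 against EV with vehicle gave 5.78 (SE 0.360).

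MYT1L and ST18 were at or near the detection limit throughout. MYT1L, the paralog typical of neurons, had 0 counts in all 12 libraries. ST18 had a single count, in TRB with vehicle replicate 2. In GENCODE release 29 (GRCh38) MYT1L spans 1789113 to 2331664 on chromosome 2 and ST18 52110839 to 52460959 on chromosome 8, both on the minus strand. Over the 107386890 counts of all libraries, a floor of 3 counts corresponds to 0.0278 CPM for either gene. Per group, the floor ranged from 0.0899 CPM in TRB with vehicle to 0.151 in EV with T3, and it was 0.112 in TRB with T3. Floors cover counting error only. Neither gene passed the count filter, so 1 of the 3 members entered the fits, and no fold is given for the other 2.

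THRB, the receptor gene, checked the labels: each of the 6 TRB libraries (79.8 to 321.9 CPM) lay above all 6 EV libraries (12.3 to 18.3 CPM). In TRB cells THRB stood at 79.8 to 80.4 CPM with vehicle and 190 to 321.9 with T3, a log2 difference of 1.75 (edgeR adjusted p 0.000434). In EV cells that difference was 0.03 (edgeR adjusted p 0.982). Hormone and a higher receptor transcript thus came together in TRB cells with T3, and their separate parts in the level of MYT1 were not tested. KLF9, a known T3-responsive gene, stood at 13.1 to 14.6 CPM in EV with vehicle and 123 to 169 with T3, and its log2 change was 4.05 in TRB cells and 3.41 in EV cells (edgeR adjusted p 5.25e-05 and 0.00272). The interaction of KLF9 was 0.64 (edgeR adjusted p 0.406), beside 5.63 for MYT1. With 11 libraries the log2 change of KLF9 was 3.52 in TRB cells and 3.42 in EV cells, and its interaction was 0.10 (edgeR adjusted p 0.785). PKMYT1, a cell cycle kinase of a different gene family that shares the name, did not pass with T3 in TRB cells (log2 -0.56 with 12 libraries and 0.01 with 11, edgeR adjusted p 0.565 and 0.978).

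The genes around the family in the cell were then read from 9 lists of partners, described targets and cell type markers, 65 of whose members were tested. With T3 in TRB cells 7 of the 65 rose and 6 fell in edgeR, 13 in all. Of all 14431 genes tested 14.7% passed, 8.54% higher and 6.2% lower. The shares of all genes given here apply to the counts of single lists below too. With 11 libraries 15 of 66 rose and 14 fell, beside 33.3% of all genes, 18.1% higher and 15.2% lower. With T3 in EV cells edgeR called 0 of the 65, of which 3 were under 0.05 before adjustment, and DESeq2 and limma-voom also called 0. Of all genes 0.229% passed in that comparison. With 11 libraries 3 passed there, GSE1 and MYRF higher and CSPG4 lower, beside 7.33% of all genes, 3.76% higher and 3.57% lower. TRB against EV in vehicle gave 0 of 65 in edgeR, DESeq2 and limma-voom, with 4 under 0.05 before adjustment in edgeR, and 0.0208% of all genes passed. With 11 libraries 0 of 66 passed there and 13 were under 0.05 before adjustment, beside 11 passing of all 14825 genes. With the compared groups alone 1563 genes passed in this comparison, and list genes were not counted in that setting. The interaction passed for 4 of the 65, higher for CTGF and MAP2 and lower for JAG1 and ATOH1, beside 2.59% of all genes, 1.77% higher and 0.825% lower. With 11 libraries 8 of 66 were higher and 7 lower, beside 15.2% of all genes, 8.55% higher and 6.68% lower.

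The corepressor list holds 20 genes of the SIN3, histone deacetylase, KDM1A and NCOR complexes through which MYT1 proteins are known to act, and all 20 were tested. With T3 in TRB cells 2 of 20 rose, none fell in edgeR, and 5 were under 0.05 before adjustment. Of all genes tested 8.54% rose and 6.2% fell. RCOR1, the scaffold that joins KDM1A to deacetylases, rose by 0.74 (SE 0.169, edgeR adjusted p 0.0136). GSE1, a protein found in such complexes, rose by 0.75 (SE 0.174, edgeR adjusted p 0.0149). RCOR1 stood at 91.9, 96.6 and 92.7 CPM with vehicle and 141, 195 and 134 with T3, and the groups did not overlap. The calls of RCOR1 and GSE1 ended in 2 and 7 of 21 other settings, with the highest adjusted p in edgeR for the compared groups alone (0.140 and 0.187). SIN3B, the partner bound directly by MYT1 and MYT1L, showed a log2 difference of -0.15 (edgeR adjusted p 0.842), KDM1A 0.38 (0.144) and REST, the repressor of neuronal genes, 0.79 (0.207). With 11 libraries SIN3B had the opposite sign, 0.35 (edgeR adjusted p 0.0646), KDM1A had 0.23 (0.0536) and REST 0.10 (0.739). The list's median was 0.32, beside 0.01 for all tested genes. With 11 libraries 4 rose and 3 fell, beside 18.1% higher and 15.2% lower of all genes, and the median was 0.14. The interaction passed for 0 of 20 in edgeR, with 2 under 0.05 before adjustment, and for RCOR1 alone in DESeq2. With 11 libraries it passed for RCOR1 and GSE1, higher, and HMG20B, lower. The summed level of the list ran from 3157 to 3488 CPM in the 9 libraries outside TRB with T3. In that group it ran from 3348 to 4410.0, and the highest was replicate 2, the library that stood apart. Replicates 1 and 3 lay within the range of the other 9 libraries.

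Notch genes pass signals between touching cells through ligands, receptors and HES targets, and 13 of 20 were tested. JAG1, a Notch ligand, stood at 111, 106 and 105 CPM in the TRB vehicle libraries and at 34.1, 31.1 and 28.1 with T3. It stood at 77.1, 91.2 and 92.3 CPM in EV with vehicle and 76.1, 75.1 and 72.6 with T3. The 3 libraries of TRB with T3 were the lowest of all 12, replicate 2 included. JAG1 fell by 1.78 (SE 0.151, edgeR adjusted p 3.11e-05), and its interaction was -1.57 (SE 0.208, edgeR adjusted p 0.00346), which passed in all 20 other settings tried. The ligand DLL4 (-1.70, edgeR adjusted p 0.0418) and the receptor NOTCH1 (-1.97, edgeR adjusted p 0.0358) fell, and the receptor NOTCH2 rose (0.59, edgeR adjusted p 0.0295). These last 3 calls ended in 11, 11 and 14 of the other settings, with adjusted p up to 0.226, 0.226 and 0.245. In replicates 1, 2 and 3 of TRB cells with T3 the CPM of NOTCH1 was 75.4, 10.3 and 77.6, with replicate 2 the lowest, and its log2 difference was -1.44 with 11 libraries (edgeR adjusted p 6.5e-05).

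HES1, the Notch target that family members are described to repress, stood higher with T3 in TRB cells. It had 28.3, 34.9 and 28.5 CPM in the TRB vehicle libraries and 46.8, 76.8 and 52.0 with T3. It rose by 0.93 (SE 0.208, edgeR adjusted p 0.0119), and by 0.74 with 11 libraries (edgeR adjusted p 0.000659). The call ended in 2 of 21 other settings, with the highest adjusted p in edgeR for the compared groups alone (0.131). Its interaction was 1.03 (edgeR adjusted p 0.105) with 12 libraries and 0.84 (0.007) with 11. In all, 2 of the 13 Notch genes rose and 3 fell in edgeR with T3 in TRB cells, with a median of -0.80 beside 0.01 for all genes. Of all genes 8.54% rose and 6.2% fell in that comparison. With 11 libraries 3 rose and 4 fell, beside 18.1% higher and 15.2% lower of all genes, and the median was -0.29.

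**Figure D2:**
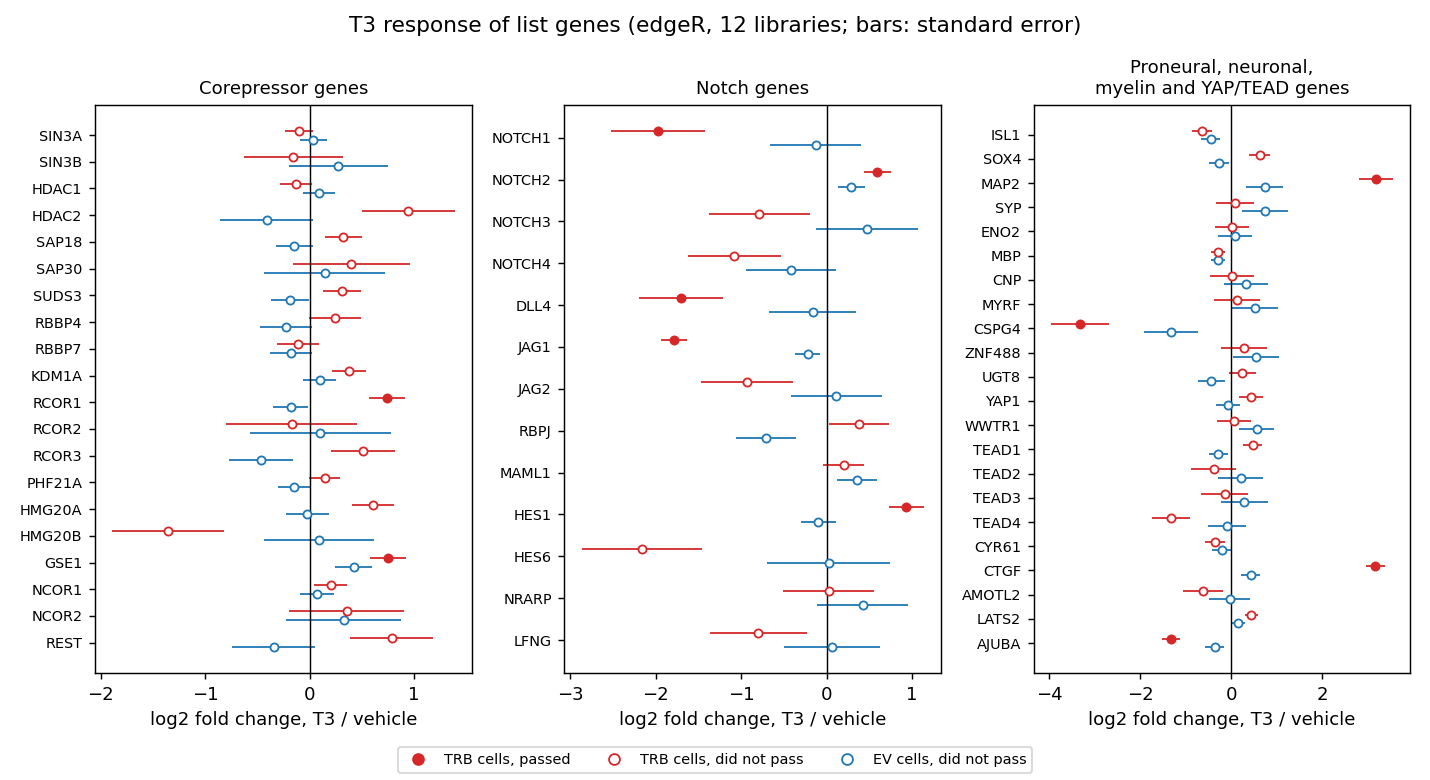
Fitted log2 change with T3 (edgeR, 12 libraries, bars: standard error) in TRB cells (red, filled where the adjusted p was under 0.05) and EV cells (blue) for tested genes of the corepressor, Notch, proneural, neuronal, myelin and YAP/TEAD lists. JAG1 (-1.78), CTGF (3.17) and MAP2 (3.18) are among the filled points, and ATOH1 is left out because it had no count in TRB cells with T3.

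Targets of YAP and TEAD were read because YAP1 is a described target of the family in glioma cells. YAP1 itself had a log2 difference of 0.43 with T3 in TRB cells (SE 0.266, edgeR adjusted p 0.288), and 0.06 with 11 libraries. CTGF, a YAP target that also answers other signals, stood at 11.2, 13 and 11 CPM in the TRB vehicle libraries and 83.5, 130.4 and 103 with T3. Those 3 libraries were above the other 9, which stood at 6.30 to 13 CPM. CTGF rose by 3.17 (SE 0.211, edgeR adjusted p 7.91e-06), with an interaction of 2.74 (SE 0.288, edgeR adjusted p 0.00134). AJUBA, a LIM protein of the same pathway, fell by 1.33 (SE 0.205, edgeR adjusted p 0.00156). The other 9 of 11 tested members did not pass in edgeR with 12 libraries, CYR61 (log2 -0.35) included. LATS2 also rose and TEAD4 also fell in edgeR with 11 libraries and in DESeq2 with 12, and limma-voom also called TEAD4.

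Neural and endocrine genes that usually accompany MYT1 were mostly undetected. Of 20 proneural and endocrine factors 3 were tested, and 6 had no count in any library: NEUROG1, NEUROG2, NEUROD4, PAX6, NKX6-1 and RFX6. ATOH1, a proneural factor also used by secretory cells of the gut, was among the 3. It stood at 2.74, 4.31 and 3.44 CPM in the TRB vehicle libraries and had 0 counts in each of the 3 libraries with T3. Against a floor of 3 counts per library it was at least 9.21-fold lower with T3. Its range in EV cells was 1.88 to 3.04 CPM with vehicle and 0.617 to 1.52 with T3. So 1 of the 3 fell and none rose in edgeR with 12 libraries. With 11 libraries ISL1 also fell, and DESeq2 with 12 also called SOX4, higher.

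Of 22 neuronal and neuroendocrine markers 3 were tested, and 11 had no count in any library, among them DCX, ELAVL4, STMN2, SNAP25, CHGA and CHGB. The largest count of an untested member was 6. MAP2, a microtubule protein of neurons that epithelial lines can also express, was the one that rose (3.18, SE 0.382, edgeR adjusted p 0.000306). It stood at 2.34, 1.90 and 2.27 CPM in the TRB vehicle libraries and at 12.9, 33.5 and 13.5 with T3. Its interaction was 2.45 (SE 0.548, edgeR adjusted p 0.0437), and that call ended in 10 of 19 other settings, with adjusted p up to 0.117. With 11 libraries ENO2 also rose. The synaptic vesicle gene SYP stood at 0.18 to 1.38 CPM.

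Myelin genes gave no common direction. MOG, OLIG1, OLIG2 and PDGFRA had 0 counts in all 12 libraries. Of the 14 listed genes 6 were tested, and CSPG4, the NG2 proteoglycan of oligodendrocyte precursors and other cells, fell by 3.33 (SE 0.633, edgeR adjusted p 0.00521), from 96.8, 87.2 and 93.8 CPM to 12.2, 1.08 and 13.9. That call ended with the compared groups alone (edgeR adjusted p 0.0953). In EV cells CSPG4 stood at 60.6, 47.8 and 64.1 CPM with vehicle and 25.5, 14.3 and 29.9 with T3 (log2 -1.32, edgeR adjusted p 0.810). There CSPG4 passed with the compared groups alone and with 11 libraries (lowest edgeR adjusted p 0.00277). Its interaction was -2.01 (edgeR adjusted p 0.226) with 12 libraries and passed with 11. MYRF, a factor of myelination and also of epithelia, did not pass with 12 libraries and rose with 11. MBP also fell, and CNP and ZNF488 also rose, with 11 libraries.

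Of the remaining lists, edgeR called 0 of 3 tested thyroid genes with T3 in TRB cells, with 2 under 0.05 before adjustment. DESeq2 also called 0, and limma-voom called 1, NKX2-1, lower. CDH1, E-cadherin, rose by 0.66 (SE 0.141, edgeR adjusted p 0.0101), 1 of 5 tested epithelial genes, and that call ended in 4 of 21 other settings. The leukocyte list had 1 tested gene, LYZ, which did not pass. The summed level of the neuronal list was 54.8 to 68.4 CPM in the 9 libraries outside TRB with T3. It was 57.7 to 97.2 in that group, with replicate 2 the lowest. The part of these lists in the level of MYT1 was not tested.

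The genes most like MYT1 were found by the Pearson correlation of log2 CPM over the 12 libraries, among the 12503 genes whose mean log2 CPM reached 1. In order they were MYO10 (0.995), ANO1 (0.990), SVIL, TANC2, GLUL (0.987), TIMP2, ADM, TP53I3, APOL2 and RAB11FIP1 (0.982). MYO10 is an unconventional myosin of filopodia, ANO1 a calcium-activated chloride channel, GLUL glutamine synthetase, TIMP2 a metalloproteinase inhibitor and ADM the peptide hormone adrenomedullin. The 12 points share libraries and groups, with 3 of them far above the rest, and 269 genes reached 0.9. With Spearman's measure 0 of these 10 were among the 10 most alike, and with 11 libraries 3 were, MYO10 and GLUL in the top places.

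GLUL came nearest to MYT1 in size. It stood at 167, 172 and 153 CPM in the TRB vehicle libraries and 2810, 3445 and 2859 with T3, a log2 difference of 4.21 (SE 0.156). In EV cells its means were 201 ± 0.518 CPM with vehicle and 329 ± 6.39 with T3, a log2 difference of 0.71, beside 0.74 for MYT1. TRB with vehicle was the lowest group of GLUL, with a mean of 164 ± 9.75 CPM. By mean, all 10 genes had the same order of groups as MYT1, which their choice by correlation favours. The vehicle groups could lie close, as for TIMP2 (108.1 ± 3.13 CPM in TRB and 108.2 ± 10.3 in EV). MYO10 had a smaller difference, from 215 ± 2.38 CPM in TRB with vehicle to 655 ± 26.6 with T3, a log2 difference of 1.61. Over the 9 libraries outside TRB with T3 the correlation with MYT1 was 0.928 for MYO10, 0.899 for GLUL and 0.710 for TIMP2, the lowest of the 10. The 10 genes were picked over 12 libraries that include these 9, so high values here are favoured by that choice. Values of other genes over the 9 are not given.

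**Figure D3:**
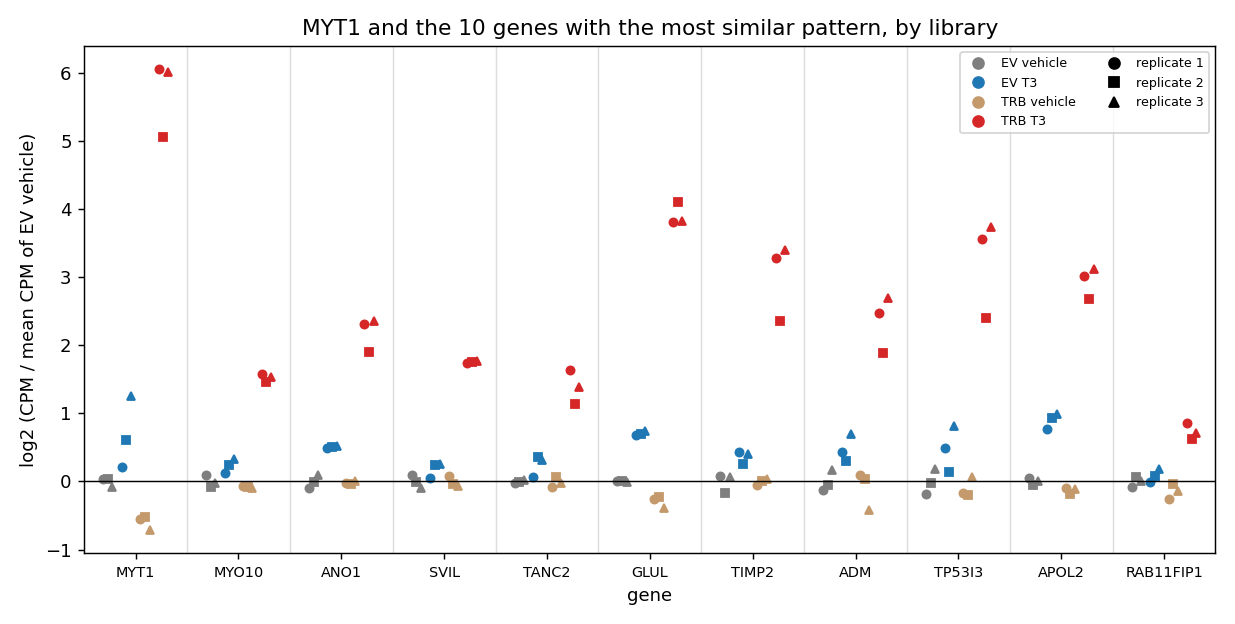
log2 of CPM over the mean of EV with vehicle for MYT1 and the 10 genes with the highest Pearson correlation with it over 12 libraries, with colours for groups and symbols for replicates. In each gene the 3 libraries of TRB with T3 lie above the rest, and the mean of MYT1 in EV with vehicle, at 0, is 3.59 CPM.

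On the chromosome, the neighbours of MYT1 were read for the same pattern. Before MYT1 the nearest protein-coding genes in RefSeq are NPBWR2, OPRL1, LKAAEAR1, RGS19 and TCEA2, 56.9 to 92.1 kb from its RefSeq start, and after it PCMTD2 is the only one in that table, 13.5 kb from its end. NPBWR2 lies inside the longer GENCODE span of MYT1, on the other strand, and had 0 counts in all libraries, as had LKAAEAR1. PCMTD2, a relative of protein repair methyltransferases, stood at 148, 174 and 181 CPM in the TRB vehicle libraries and 299.5, 733 and 295 with T3, without overlap. It rose by 1.40 (SE 0.326, edgeR adjusted p 0.0152) with 12 libraries and by 0.87 (adjusted p 0.000495) with 11. In that comparison 8.54% of all tested genes rose with 12 libraries and 18.1% with 11. Its GC content was 39.3%, and replicate 2 stood 1.30 above replicates 1 and 3 on the log2 scale, whereas MYT1, with 54.4%, stood 0.98 below there (-0.98). The call of PCMTD2 ended with the compared groups alone and without TRB with vehicle replicate 1 (adjusted p 0.131 and 0.0583). Its interaction was 1.76 (edgeR adjusted p 0.0751) with 12 libraries and 1.23 (0.00132) with 11, and its log2 difference in EV cells was -0.37.

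The genes before MYT1 did not pass in edgeR with 12 libraries. TCEA2, an elongation factor, had a log2 difference of 1.71 (SE 0.583, edgeR adjusted p 0.0757) with T3 in TRB cells, on levels of 0.51 to 0.84 CPM with vehicle and 3.38, 0.36 and 2.62 with T3. With 11 libraries it rose by 2.18 (edgeR adjusted p 0.00038), and it also passed in DESeq2 with 12 (adjusted p 0.044). OPRL1, the nociceptin receptor, had 0.34 (adjusted p 0.563) with 12 libraries and rose by 0.74 (0.0143) with 11. RGS19, a regulator of G protein signalling, had 0.12 (adjusted p 0.870) and 0.58 (0.0631). Beside these neighbours, 18.1% of all tested genes rose with T3 in TRB cells in the fit of 11 libraries. MYT1 had the most positive difference of the 5 measured genes in either fit. It was chosen for this rise, so its place among them is no separate result.

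**Figure D4:**
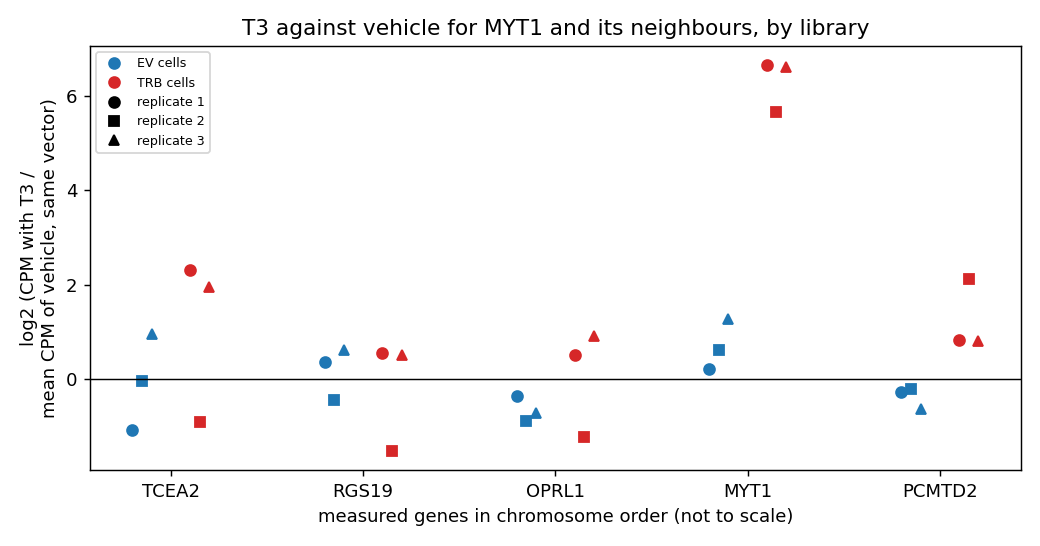
log2 of the CPM of each T3 library over the mean vehicle CPM of the same cells, for MYT1 and the 4 neighbouring genes that were tested, in chromosome order (not to scale), in EV (blue) and TRB cells (red). MYT1 is above 5 in each TRB library, PCMTD2 is above 0 in all 3, and replicate 2 of TCEA2, RGS19 and OPRL1 lies below 0.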

How the data were processed

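RNA-seq of 12 libraries of SW1736 cells was analysed from the counts per gene symbol that the authors deposited, which are whole numbers and not normalized. The submitters' processing notes name CASAVA 1.7, STAR 2.7, HTSeq 0.10, DESeq2 and the build hg38, without their roles or order. The strand setting and the gene annotation are not given in the sources used here, so reads of overlapping or antisense genes and of near-identical copies are uncertain. The 5 closing lines of each file, for reads of no gene, were left out. They held 44.8% to 94.4% of everything counted in a file. A table of normalized values for the whole series was not used.

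Groups were taken from the labels. Genes were filtered with filterByExpr (minimum count 10, minimum total 15), which left 14431 of 56832 genes, and TMM (trimmed mean of M-values) set the library scaling. A quasi-likelihood model in edgeR 4.0.16 (R 4.3.3) with 1 coefficient per group was fitted to all 12 libraries and tested in 6 contrasts, two-sided, with Benjamini-Hochberg adjustment over all genes tested, at 0.05. The contrasts share libraries. The procedure was tested on simulated counts with known changes. The simulated libraries had a common spread and none stood apart, so this does not cover the effect of TRB with T3 replicate 2. CPM are counts relative to library size after that scaling, and correlations used log2 CPM with a prior count of 2. A floor of 3 counts stands for a count of 0 and covers counting error only.

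The members and lists were chosen with earlier results of these data known, and 4 genes first on the lists are not reported here and enter no list count. Named genes are the family, THRB, KLF9, PKMYT1, the 10 genes most correlated with MYT1, the neighbours of MYT1 in RefSeq (5 sought on each side), list members that passed with T3 in TRB cells or in the interaction (at most 4 per direction), and HES1, YAP1, REST, SIN3B and KDM1A. Members named only for passing with 11 libraries were chosen after their values were seen. Finger positions come from GENCODE release 29 and the upstream window from RefSeq (GRCh38.p14). No protein table was used. Alternatives were DESeq2 1.42.0, limma-voom (limma 3.58.1), other scalings and count filters, the compared groups alone, a replicate block and leaving out each library. The fit of list counts without TRB with T3 replicate 2 was chosen after seeing the data.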

Additional observations from a re-analysis of the deposited data

Results flagged for a closer look

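Among list genes, neighbours of MYT1, THRB, KLF9 and PKMYT1, the interaction term of the edgeR fit passed for 5, beside 2.59% of all genes. MYT1 and the 10 genes most like it were picked on their pattern and are left out here. The values are log2 differences of the T3 effect, TRB minus EV. CTGF had 2.74 (adjusted p 0.00134) and JAG1 -1.57 (adjusted p 0.00346), and both passed in all 20 other settings. ATOH1 had -6.78 (adjusted p 0.00987) and passed in all 19 other settings that tested it, but its size depends on the prior count because TRB with T3 held no count. THRB had 1.72 (adjusted p 0.0187) and lost the call in 9 of 20 settings, with adjusted p up to 0.0787. Counts per symbol do not separate the supplied receptor of TRB cells from the cells' own THRB. The call of MAP2 (2.45, adjusted p 0.0437) ended in 10 of 19, with adjusted p up to 0.117.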

How the results depend on the processing

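The log2 differences of MYT1 kept their sign in every setting tried: 6.23 to 6.68 for T3 in TRB cells, 0.47 to 1.01 for T3 in EV cells, -0.61 to -0.50 for TRB against EV in vehicle, 4.83 to 5.40 with T3, 5.68 to 6.11 for TRB T3 against EV vehicle, and 5.39 to 5.98 for the interaction. Counts of genes past the threshold moved more. They were 2128 for T3 in TRB cells, 33 for T3 in EV cells, 3 for TRB against EV in vehicle, 964 with T3, 1535 for TRB T3 against EV vehicle and 374 for the interaction. Leaving out 1 library gave 1256 to 4938, 10 to 1087, 1 to 11, 414 to 2918, 875 to 4997 and 136 to 2259 in the same order, each highest without TRB with T3 replicate 2. With the compared groups alone the counts were 634, 200, 1563, 32 and 385. With DESeq2 they were 172 for T3 in EV cells, 8 for TRB against EV in vehicle, 1905 with T3 and 1022 for the interaction. Without a count filter they were 19 for T3 in EV cells and 238 for the interaction. The cause of these moves was not tested. With a replicate block T3 in EV cells gave 18 genes and the interaction 395. Same-numbered libraries correlated over 0.1 in 12 of 18 pairs (-0.19 to 0.73) and best with their own number in 21 of 36 comparisons. The labels do not say whether equal numbers mark pairs, and these values do not settle it. The main fit left the libraries unpaired. Scaling by total library size moved the median log2 difference of all genes by -0.15 for T3 in TRB cells and by -0.16 for the interaction. Of the settings for list genes, neighbours, THRB, KLF9 and PKMYT1, 54 ended a call for T3 in TRB cells and 19 for the interaction, 3 and 20 made one. In 22 the sign turned, for values that passed neither there nor with 12 libraries. Leaving out 1 library, the log2 differences whose sign turned ran, for T3 in TRB cells, from -0.134 to 0.581 for RGS19, -0.00566 to 0.736 for OPRL1, -0.959 to 0.0106 for PKMYT1 and -0.448 to 0.353 for SIN3B. For T3 in EV cells they ran from -0.55 to 0.221 for DLL4, -0.125 to 0.0285 for HES1, -0.297 to 0.0926 for NOTCH1, -0.36 to 0.447 for TCEA2, -0.0947 to 0.204 for THRB and -0.127 to 0.0875 for YAP1. For the interaction they ran from -0.398 to 0.364 for RGS19 and -0.771 to 0.0834 for SIN3B. The sign also turned for RGS19 with T3 in TRB cells under limma-voom (-0.11) and the replicate block (-0.0641), and with T3 in EV cells for TCEA2 under limma-voom (-0.0255) and for THRB (-0.0149) and TCEA2 (-0.0114) without a count filter. Depth limits the family: MYT1 outside TRB with T3 rests on 17 to 52 counts, and MYT1L and ST18 on 0 or 1.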

Other observations

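Genes typical of intestinal epithelium were read after their values were seen, because the thyroid markers of the line were at or near 0. LGALS4, a galectin of the gut, stood at 56.1 to 733 CPM, VIL1, the microvillus protein villin, at 155 to 208, HNF4A at 23.2 to 125.6 and KRT20 at 57.5 to 109. Without TRB with T3 replicate 2 the lowest values were 264 for LGALS4 and 40.8 for HNF4A. The intestinal factor CDX1 had no count, CDX2 had at most 28 counts and the mucin MUC2 at most 11. LYZ, lysozyme, stood at 778 to 1589 CPM, while the leukocyte gene PTPRC had at most 2 counts. The identity of the line was not tested.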
